A study of Salmo salar with 18 samples.

Results

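The 70 kDa heat shock protein and its J-domain cochaperones were followed in the liver of Atlantic salmon (Salmo salar) through 4 array probes, which stand for 3 genes among 43689 probes. The probes were taken by their names, but earlier results of these data were known when they were chosen. The study named all 4 in its list of probes called in WN. C007R083 is the probe of hsp70, which the array annotation also names HSPA8, C120R137 and C194R097 are both annotated as DNAJA4, and C239R031 as DNAJA1. All 4 were found on the arrays and all 4 passed the filter on signal that left 23846 probes for testing. The post-smolts came from 3 treatments. Control fish (CT) stayed at 12 °C and 100% air saturation. Warm and normoxic fish (WN) were warmed from 12 to 20 °C by 1 °C per week at 100% air saturation. Warm and hypoxic fish (WH) were first taken to 70% air saturation over 1 week, held there for 2 weeks and then warmed in the same steps at that oxygen level. The livers of both warmed groups were taken after 3 days at 20 °C. Each treatment had 2 tanks and 6 fish on the arrays, 3 from each tank. No treatment had low oxygen without warming, and warming in both groups was slow rather than a sudden shock. Fish of a tank shared their water, so p-values over fish measure the spread between fish and not between tanks.

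HSP70 proteins bind exposed stretches of unfolded protein and release them as they hydrolyse ATP. J-domain proteins of the DNAJ families bring them their substrates and speed up that hydrolysis, and nucleotide exchange factors end the cycle. In mammals HSPA8 is the cognate form that most cells make all the time, and DNAJA1 and DNAJA4 are class A J-domain proteins of the cytosol that work with it. Warmth frees the transcription factor HSF1 from its chaperones and leads to transcription of many of these genes, and the liver, which makes much secreted protein, is a tissue in which the response is often followed in fish.

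The study's primer table assigns 1 quantitative PCR product to both hsp70 probes on the array, C007R083 and its partner C116R145. It is shown because the study lists both probes, which gave different values below, beside it. Where the probes lie on the transcript was not determined here. The capitals mark the sites of the forward and the reverse primer, and the product is 151 bases long with 53.6% G and C.
hsp70 product: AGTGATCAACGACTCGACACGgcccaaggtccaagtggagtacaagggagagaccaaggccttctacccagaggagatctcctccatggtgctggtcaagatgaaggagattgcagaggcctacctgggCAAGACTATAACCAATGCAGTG
Both probes carry a RefSeq transcript that the current salmon gene table names hsp7c. For the 3 DNAJ probes the symbols stand on the study's annotation alone. Which close copies of a gene each probe also binds was not determined here. By quantitative PCR, the study described hsp70 as slightly higher in both warmed groups, an effect that it reported as not significant. That test used more fish per treatment than the arrays and a mixed model with tank as a random term. It is therefore not the same kind of test as the array tests below.

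Each fish's RNA was labelled with Cy5 and hybridised against a Cy3-labelled pool of all 18 fish, so a value is the log2 ratio of a fish to that pool and levels of different probes cannot be set against each other. On the arrays 8.93% to 17.3% of the probes were flagged and 58.8% to 81.7% were unflagged and above background in at least one channel. Of the hepatocyte genes sought, 2 could be named, APOH and C3, and their 3 probes were above background on 15 to 18 arrays. Of the red blood cell genes, HBA4 and ALAS2 could be named, and the mean log2 ratio of their 3 probes lay between 0.23 and 0.56 in CT, between -0.66 and -0.11 in WN and between -0.92 and 0.18 in WH. The mean of 5 leukocyte probes overlapped between the treatments, from -0.56 to 0.32 in CT, from -0.68 to 0.20 in WN and from -0.54 to 0.44 in WH. By single genes, APOH and the leukocyte genes MPO and NCKAP1L rose in both warmed treatments, by 1.19 to 1.71. By quantitative PCR, however, the study found nckap1l lower in both warmed groups, against its array probe. The MPO probe is the one that the study's quantitative PCR genes call epx. The epithelial KRT8 rose by 0.79 in WN, and had 0.68 in WH, where it did not pass. HBA4 and the stromal COL1A1 fell by 1.12 and 0.92 in WH. In WN they had -0.90 and -0.68 and did not pass. The other probes of these lists passed in neither treatment. Of those, the 3 IGHM probes had differences of -0.74 to -0.86 in WN and -0.51 to -0.83 in WH, the 2 C3 probes -0.79 and -0.82 in WN and -0.30 and -0.54 in WH, and the 2 ALAS2 probes -0.57 and -0.71 in WN and -0.50 and -0.66 in WH. The symbols of these marker probes come mostly from the study's list of probes called in WN on these samples. Their shifts from CT are therefore not independent evidence of a change in cell types. The part of these shifts in the results was not tested. In whole liver, a change in RNA per cell and a change in the share of a cell type cannot be told apart.

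hsp70 was higher in both warmed treatments than in CT. The probe C007R083 was bright on every array, with Cy5 intensities from 1991 to 20982, and was unflagged and above background in all 18 fish. In CT its log2 ratio was -2.77 at the lowest, -1.42 at the median and -0.46 at the highest. The WN fish lay between 0.13 and 0.85 with a median of 0.69. The WH fish spread more widely, from -0.79 to 0.97 with a median of 0.30. Every WN fish was above every CT fish, whereas the lowest WH fish, replicate 2, was below the highest CT fish, replicate 5. One CT fish, replicate 6, was well below the other CT fish.

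**Figure D1:**
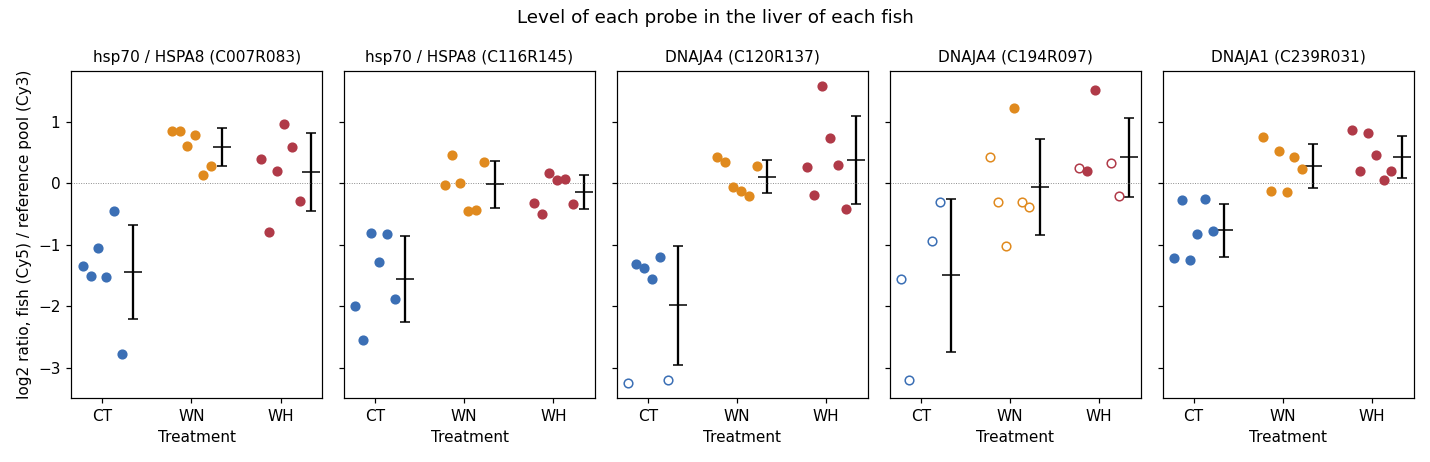
Log2 ratio of the fish's liver RNA to the reference pool (y axis) for each of the 4 probes and the second hsp70 probe, by treatment (x axis). Points are fish, open where the Cy5 spot was not above its background by 2 background SDs, and the bar is the mean ± SD. The WN fish of C007R083 sit between 0.13 and 0.85, all above the CT fish.

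The mean log2 ratio of hsp70 rose from -1.44 ± 0.76 (SD, n = 6) in CT to 0.58 ± 0.31 (SD, n = 6) in WN and 0.18 ± 0.63 (SD, n = 6) in WH. In the limma fit over all tested probes, the difference of WN from CT was 2.02 ± 0.32 (SE), a 4.06-fold higher level, with a 95% interval of 1.37 to 2.68 and a Benjamini-Hochberg adjusted p of 4.84e-04. For WH against CT it was 1.62 ± 0.32 (SE), a 3.07-fold higher level, with an interval of 0.96 to 2.27 and an adjusted p of 0.00295. The same CT fish entered both comparisons, which are therefore not independent. The tank means of both warmed treatments were above those of CT. They were -1.30 and -1.58 in CT, 0.77 and 0.40 in WN, and -0.07 and 0.42 in WH. Even so, 2 tanks against 2 cannot give an exact two-sided p below 0.333. On each of the 3 slides that held both treatments, WN exceeded CT by 2.19 to 2.31, and on the 3 slides shared by WH and CT the difference was 0.54 to 1.90. Here and below, a within-slide difference rests on 1 or 2 fish of each treatment. Such ranges therefore do not measure the spread between fish.

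The second hsp70 probe, C116R145, gave differences of 1.54 ± 0.27 (SE, limma adjusted p = 0.00130) for WN and 1.41 ± 0.27 (SE, limma adjusted p = 0.00243) for WH. In CT its log2 ratios ran from -2.54 to -0.81, and no warmed fish was as low, with WN between -0.46 and 0.45 and WH between -0.50 and 0.17. Both probes put hsp70 higher in the warmed fish. The study had listed both as called in WN on these samples, so their shared direction is not independent evidence. They did not order the control fish alike. Replicate 6 was the lowest CT fish by C007R083, at -2.77, and replicate 2 was the lowest by C116R145, at -2.54. Taken as deviations from the treatment means, the probes had a Pearson r of 0.50 over 18 fish (permutation p = 0.0746) and a Spearman rho of 0.47 (permutation p = 0.0661). Without the pair of fish farthest from the median by C007R083, r was 0.47. This comparison was added after the values had been seen.

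DNAJA4, a class A J-domain protein, was higher in both warmed treatments than in CT by C120R137. Its CT fish ran from -3.25 to -1.20 with a median of -1.47. In WN the log2 ratio lay between -0.21 and 0.42 with a median of 0.10, and in WH between -0.42 and 1.58 with a median of 0.28. No warmed fish of either treatment overlapped with CT. The difference from CT was 2.09 ± 0.37 (SE, 95% interval 1.33 to 2.84, limma adjusted p = 0.00129) in WN and 2.36 ± 0.37 (SE, 95% interval 1.60 to 3.12, limma adjusted p = 3.29e-04) in WH. The tank means were both -1.98 in CT, 0.23 and -0.02 in WN, and 0.55 and 0.20 in WH. Within slides, WN exceeded CT by 1.42 to 2.82 and WH exceeded CT by 1.47 to 1.87.

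The size of the DNAJA4 difference rested in part on 2 control spots that were not above background. They belonged to CT replicates 1 and 6, whose Cy5 intensities were 1 and 3.5, while the other CT spots read 42 to 215 and the WN and WH spots 215 to 1528. These fish had log2 ratios of -3.25 and -3.19, values that depend on the offset of 50 in the background correction. With only spots above background in Cy5, an alternative added after the values had been seen, the difference was 1.47 (limma adjusted p = 0.00530) in WN and 1.74 (limma adjusted p = 0.00104) in WH. With no background correction the differences grew to 5.73 and 6.06 but were no longer called (limma adjusted p = 0.0840 and 0.0664), and with plain subtraction the WN difference was 3.61 (limma adjusted p = 0.0627). In the authors' table, which lacks CT replicate 1 and WH replicate 4 for this probe, they were 3.53 and 3.74 (limma adjusted p = 0.0306 and 0.0291). CT replicate 6 stood at -9.18 there, and the other CT fish with a value at -2.45 to -1.70. The size of these differences therefore rests in part on that fish.

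**Figure D2:**
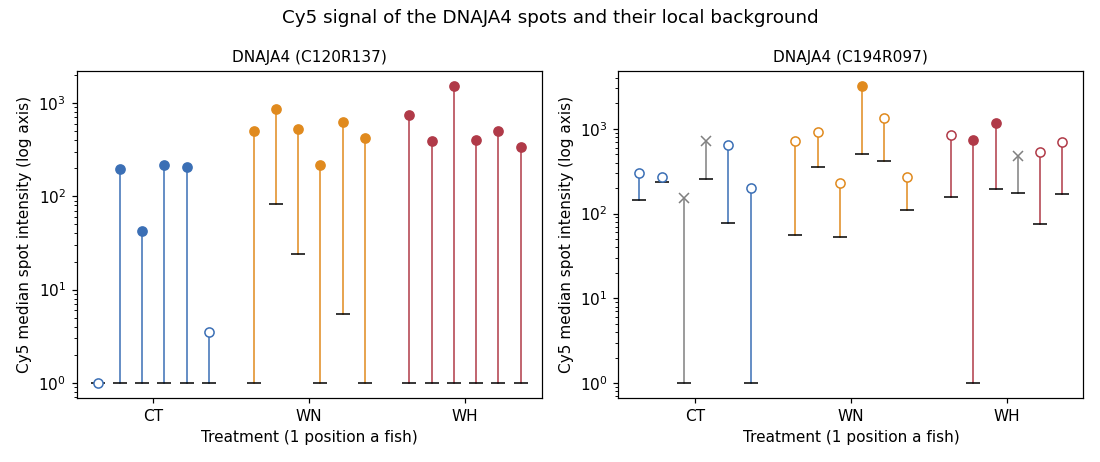
Cy5 median spot intensity (y axis, log scale) of the 2 DNAJA4 probes in each fish, by treatment (x axis), with the local background as a dash. Filled points are above background by 2 background SDs, open points are not, and grey crosses are flagged spots. For C120R137 the CT spots of replicates 1 and 6 read 1 and 3.5, while for C194R097 no unflagged CT spot is above background.

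The other DNAJA4 probe, C194R097, was dim, and the deposited flags removed 3 of its 18 spots. It passed the filter on signal on 14 arrays, the fewest allowed, mostly through the Cy3 pool and not through the RNA of the fish. None of the 4 unflagged CT spots was above background in Cy5, against 1 of 6 in WN and 2 of 5 in WH. Its CT log2 ratios were -1.55, -3.20, -0.94 and -0.30 in replicates 1, 2, 5 and 6. The WN fish ran from -1.02 to 1.21 with a median of -0.31. The WH values were 0.25, 0.20, 1.51, 0.33 and -0.20 in replicates 1, 2, 3, 5 and 6, so that each of them was above the CT fish, while 4 of 6 WN fish lay within the CT range. The fitted differences were 1.92 ± 0.50 (SE, limma adjusted p = 0.0286) in WH and 1.43 ± 0.48 (SE, limma adjusted p = 0.0948) in WN, where the test was not passed. Within slides, WN less CT ran from -0.08 to 3.65 and WH less CT from 0.10 to 3.45. The tank means were -2.38 and -0.62 in CT, -0.30 and 0.18 in WN, and 0.65 and 0.06 in WH. With CT not above background and most warmed fish not above it either, no fold is given for this probe, and the fitted difference ranged from 0.87 to 2.17 in WN and from 1.23 to 2.71 in WH over the alternatives. The WH call was lost without CT replicate 1 (limma adjusted p = 0.0663), CT replicate 2 (0.0958), WH replicate 3 (0.0749) or WH replicate 5 (0.0501), and the WN call was gained without CT replicate 6, where the difference was 1.83 (limma adjusted p = 0.0460).

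DNAJA1, the other class A J-domain protein, rose by about a single log2 unit in both warmed treatments. C239R031 was unflagged and above background in all 18 fish. Its log2 ratio was between -1.24 and -0.26 in CT, with a median of -0.80. In WN it ranged from -0.14 to 0.74 around a median of 0.33, and in WH from 0.05 to 0.86 around a median of 0.33. Neither warmed group overlapped with CT. The difference was 1.04 ± 0.23 (SE, 95% interval 0.57 to 1.51, limma adjusted p = 0.00861) in WN and 1.19 ± 0.23 (SE, 95% interval 0.72 to 1.67, limma adjusted p = 0.00243) in WH, which are 2.05-fold and 2.29-fold. Within slides, WN exceeded CT by 0.13 to 1.76 and WH exceeded CT by 0.59 to 1.21. The WN call was lost with slide as a block (0.97, limma adjusted p = 0.0529) and with median centring in place of loess (0.90, limma adjusted p = 0.0687).

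In all, 3 of the 4 probes passed the test as higher in WN than in CT, where 1.86% of the 23846 probes tested did so, and 4 of 4 passed as higher in WH, where 2.42% did so. The WH call of C194R097, whose spots were mostly not above background, was lost under several alternatives. Of the 3 members with a value on every array compared, 3 had no overlap between WN and CT and 2 had none between WH and CT. Over all probes measured as fully, the shares that were higher without overlap were 1.43% and 2.04%. hsp70 was among the study's quantitative PCR genes, which were picked from its array results. All 4 probes, hsp70 included, stand in the study's list of probes that it called in WN on these arrays. A count of calls in WN is therefore not independent evidence of a direction. The counts in WH and the counts without overlap used the same CT fish, so they are not independent of that choice either.

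Low oxygen on top of warming was addressed by WH against WN. No member passed the test, and no probe was called among the 23846 tested (0%, smallest limma adjusted p = 0.411), with 1377 at an unadjusted p under 0.05 and 0 called by SAM, the permutation method of the study. The hsp70 difference, WH less WN, was -0.40 on the log2 scale (95% interval -1.06 to 0.25, limma adjusted p = 0.901) by C007R083 and -0.12 (interval -0.68 to 0.43) by C116R145. The DNAJ probes had differences above 0, which were 0.27 (-0.48 to 1.03) for C120R137, 0.48 (-0.46 to 1.42) for C194R097 and 0.16 (-0.32 to 0.63) for C239R031. For each probe the interval leaves room for a level lower or higher in WH than in WN. For hsp70 it runs from -1.06 to 0.25 by C007R083, and for DNAJA4 from -0.48 to 1.03 by C120R137. The wider DNAJA4 interval, up to 1.42, comes from C194R097, whose spots were mostly not above background. In order of mean level, hsp70 ran CT, WH, WN and the 3 DNAJ probes ran CT, WN, WH, and in each case the upper 2 treatments were not told apart.

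**Figure D3:**
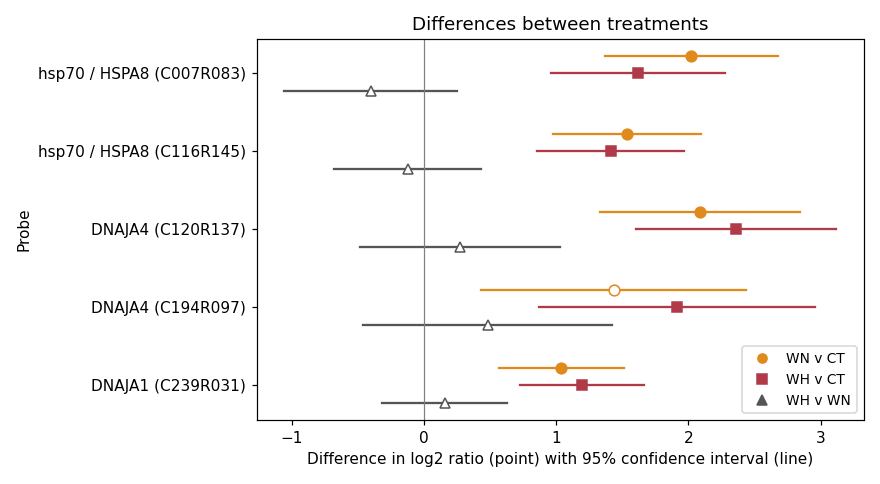
Difference in log2 ratio between treatments (x axis) for each probe (y axis), with its 95% confidence interval from the limma fit. Filled points passed an adjusted p of 0.05, and open points did not. The WH v WN intervals of all 5 probes include 0, and the WN v CT point of C194R097, at 1.43, is the open one among the comparisons with CT.

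Fish that were high for one member were not shown to be high for another. After the treatment mean was taken away, hsp70 (C007R083) and DNAJA4 (C120R137) had r = 0.59 over 18 fish (permutation p = 0.0414, adjusted p = 0.249 over the 6 pairs) and rho = 0.51 (permutation p = 0.0603, adjusted p = 0.362). Without CT replicate 6 and WH replicate 2, the fish farthest from the median by C007R083, r was 0.37. In the authors' table, where C120R137 has a value in 16 fish, r was 0.72. That table keeps CT replicate 6, at -2.79 for C007R083 and -9.18 for C120R137, the lowest value of each probe. C120R137 and C239R031 had r = 0.45 (permutation p = 0.0973, adjusted p = 0.292) and rho = 0.42 (permutation p = 0.131, adjusted p = 0.393). Without the 2 fish farthest from the median by C120R137 r was 0.41, and in the authors' table it was 0.22. In each pair these fish were picked on a single probe, so fish far out for the other could be kept. The other 4 pairs had r between -0.10 and 0.13 with adjusted permutation p of 1.00 each and rho between -0.03 and 0.28 (adjusted permutation p from 0.715 to 0.982), and without the 2 fish farthest from the median their r was between -0.47 and 0.39. The 2 DNAJA4 probes, which carry the same symbol, had r = -0.02 over the 15 fish with both values. Of these fish, 12 had a C194R097 spot not above background.

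The wider HSP70 and J-domain family was represented by 13 probes of 9 genes with a name, the 4 members included. Of these, 9 rose, 2 fell and 2 did not pass in WN, and 8 rose, 1 fell and 4 did not pass in WH. Over all probes tested, 1.86% rose and 3.08% fell in WN, and 2.42% rose and 2.72% fell in WH. The median difference was 1.08 in WN and 1.06 in WH, beside 0.01 and 0.04 over all probes tested. The list was named from probes the study had called in WN on these samples, and the study's list of calls in WH was not available here. Its counts and directions are therefore not independent evidence. Neither is the number of calls in WN beside that in WH. Beyond the members and C116R145, the probes that rose in both treatments belonged to DNAJC12 and DNAJB6. DNAJC12, which in mammals binds aromatic amino acid hydroxylases together with HSP70, had differences of 1.30 and 1.25 in WN by its 2 probes (limma adjusted p = 5.54e-04 and 9.18e-04) and 1.01 and 1.11 in WH (0.00434 and 0.00218). DNAJB6, known in mammals for holding back protein aggregation, had 0.97 in WN (limma adjusted p = 0.0116) and 1.06 in WH (0.00524).

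Some genes of the HSP70 and J-domain list passed the test in WN and not in WH, which by itself shows no difference between these treatments. The names came from probes the study called in WN, which favours such genes. DNAJB9, a J-domain protein of the endoplasmic reticulum, had 1.08 in WN (limma adjusted p = 0.0399) and 0.87 in WH (0.106). DNAJC7, which passes substrates between HSP70 and HSP90, had 0.71 in WN (limma adjusted p = 0.0209) and 0.38 in WH (0.263). HSPA14, a ribosome-bound HSP70 relative, fell by 0.93 in WN (limma adjusted p = 0.0325) and had -0.68 in WH (0.130). Their WH v WN differences were -0.21, -0.33 and 0.25 and none passed. DNAJC8, a J-domain protein linked to splicing in mammals, fell by 0.74 in WN (limma adjusted p = 0.0308) and by 0.69 in WH (0.0431) by C204R125, while C025R049 had -0.67 and -0.55 and did not pass. The count of calls in WN dropped from 11 to 5 with median centring, to 6 with slide as a block and to 7 without CT replicate 4.

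**Figure D4:**
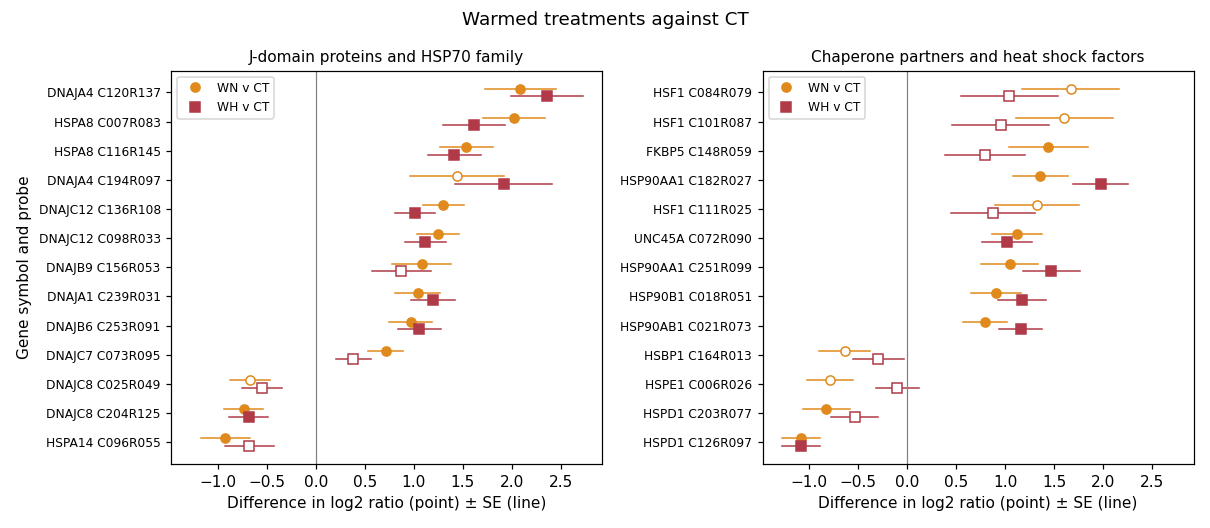
Difference in log2 ratio from CT (x axis, ± SE) in WN (circles) and WH (squares) for each named probe (y axis) of the HSP70 and J-domain family on the left and of the partner list on the right. Filled symbols passed an adjusted p of 0.05. DNAJC8, HSPA14, HSPD1, HSPE1 and HSBP1 are the genes with values below 0.

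The partner list held other chaperones, cochaperones and heat shock factors, and 13 probes of 9 genes were named. Of these, 6 rose, 2 fell and 5 did not pass in WN, and 5 rose, 1 fell and 7 did not pass in WH. The shares over all probes were the same as above, 1.86% and 3.08% in WN and 2.42% and 2.72% in WH. Most of these names too come from the study's list of calls in WN on these samples. That of HSP90AB1 comes from the study's quantitative PCR genes, which were picked from its array results. The counts, the directions and the number of calls in WN beside that in WH are therefore not independent evidence. The median difference was 1.05 in WN and 0.95 in WH, beside 0.01 and 0.04 over all probes. HSP90AA1, the stress-responsive cytosolic HSP90 that takes over substrates from HSP70, rose by 1.36 and 1.05 in WN by its 2 probes (limma adjusted p = 0.00564 and 0.0398) and by 1.97 and 1.47 in WH (1.49e-04 and 0.00357). HSP90AB1, its cytosolic sister, rose by 0.79 in WN (limma adjusted p = 0.0392) and by 1.16 in WH (0.00245). By quantitative PCR, the study reported a significant effect of treatment on hsp90aa1 but not on hsp90ab1. HSP90B1, the HSP90 of the endoplasmic reticulum, rose by 0.91 (0.0412) and 1.17 (0.00540), and UNC45A, a cochaperone that helps myosin fold, by 1.12 (0.0110) and 1.02 (0.0193). FKBP5, a cochaperone of steroid receptors, rose by 1.44 in WN (0.0413) and had 0.79 in WH (0.318). These p-values are from the same limma fit.

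HSPD1, the HSP60 of the mitochondrion, was the gene of the partner list that fell. It fell by 1.08 in both WN and WH by C126R097 (limma adjusted p = 0.00162 and 0.00133), while C203R077 fell by 0.83 in WN (0.0469) and had -0.54 in WH (0.231). Its partner HSPE1 had -0.79 in WN (limma adjusted p = 0.0516) and -0.10 in WH (0.876). For HSF1, 3 probes had differences of 1.33 to 1.67 in WN (limma adjusted p from 0.0542 to 0.0755) and 0.88 to 1.04 in WH (0.272 to 0.325). None of these passed, and HSF1 and HSPE1 are given here after their values had been seen.

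The patterns most like that of hsp70 over the 18 arrays were looked for among 18647 probes with a value on every array. The highest Pearson r with C007R083 was 0.90, for the J-domain gene DNAJC12 (C136R108). PABPC1, a poly(A)-binding protein, followed with 0.89, then NFE2L1, a transcription factor, with 0.88, and SERPINH1, the collagen chaperone of the endoplasmic reticulum, and BLCAP, both with 0.87. For the mean of the 3 DNAJ probes, which in CT replicates 3 and 4 and WH replicate 4 was a mean of 2 because C194R097 was flagged there, the 5 most alike were 3 probes of SERPINH1 with r of 0.94, 0.93 and 0.92, the HSP70 and HSP90 cochaperone TTC4 with 0.93 and C162R111, which has no name here, with 0.91. The next named genes were RPL13, a ribosomal protein, with 0.91, LOC106570920 and NALCN, a sodium leak channel, both with 0.90. SERPINH1 had larger differences from CT than any member in the same fit, with 3.09 in WN and 3.49 in WH by C205R085. All points share 1 reference pool and the same warming contrast, so these values of r describe mainly the split between CT and the warmed fish.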

How the data were processed

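Per the labels, liver RNA of 18 fish was hybridised with Cy5 against a Cy3 pool of all 18, without dye swaps. The authors quantified each spot in ImaGene, and the deposited intensity values carry no background correction or normalization. The deposited log2 table holds the authors' background-corrected, loess-normalized ratios without flagged spots, and served as an alternative. The processed values of some probes are missing there, so 16 and 14 fish had a value for the 2 DNAJA4 probes.

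Here, spot medians were corrected by normexp (offset of 50) and loess within each array with limma (version 3.58.1, R 4.3.3). Flagged spots were left out. Tested probes were unflagged and above background by 2 background SDs in a channel on at least 14 arrays. The 3 treatments were compared in 1 limma fit with Benjamini-Hochberg adjustment over 23846 probes at 0.05. The main test differs from the study's SAM, which was rewritten with 100 regroupings as an alternative. Correlations used 100000 shuffles within treatments. The procedures were tested on simulated data. Arrays give no read depth; precision rests on 6 fish a treatment and, for the DNAJA4 probes, on signal near background.

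Genes named are the members, other probes of hsp70, and a list of HSP70 and J-domain genes. Others come from the partner list of chaperones, cochaperones and heat shock factors (values where past the threshold) and from the most similar patterns. Symbols came from the study's tables, held here in part (417 entries of the WN list and all of the WH list not shown). The members and lists were chosen with earlier results of these data known.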

Additional observations from a re-analysis of the deposited data

Results flagged for a closer look

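Among 78 groups of 4 to 6 fish, from 26 chaperone probes in 3 treatments, 4 had 1 fish set apart from the others by the Dixon test, and chance marks about 1 group in 20. None concerned the 4 members. The test sets a fish against the next one, so it cannot mark fish that lie apart together. CT replicates 1 and 6 of C120R137, at -3.25 and -3.19, were such fish. HSP90AA1 (C251R099) had a log2 ratio of -0.83 in WH replicate 1, where the next fish was at 0.35. HSP90AB1 (C021R073) was -0.32 in CT replicate 4, above the next fish at -0.85. DNAJC8 (C025R049) was -0.53 in WH replicate 3, below the next at -0.18. HSPD1 (C126R097) was -1.22 in WN replicate 5, below the next at -0.61.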

How the results depend on the processing

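The 2 well-measured probes, C007R083 and C239R031, kept their direction against CT under every alternative run, with 1.76 to 2.22 and 0.72 to 1.19 in WN and 1.35 to 1.81 and 0.92 to 1.41 in WH. C007R083 stayed called throughout. C239R031 was no longer called in WN with median centring (0.90) or slide as a block (0.97). C120R137 was not called in WN with background subtracted (3.61) or without background correction (5.73), nor in WH without it (6.06). The WH call of C194R097 was lost with background subtracted (2.70), median centring (1.31), the mean of the pixels (1.23), no filter on signal (1.92) and slide as a block (2.01). With each fish left out, C194R097 ranged from 1.35 to 2.31 in WH and from 0.87 to 1.83 in WN. With only spots above background in Cy5 it had no value against CT, and its WH v WN difference of 0.48 became -0.36, called in neither case. Above background on every array left it out.

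Over all probes, 1179 were called in WN and 1226 in WH, against 473 and 497 with median centring and 763 and 686 with slide as a block. Median centring moved the share that was higher in WN from 37.7% to 24.9%. Without 1 fish, the WN count was 754 (without CT replicate 6) to 1165. The family count in WN, 11, was 5 with median centring, 6 with slide as a block and 7 to 12 without 1 fish. The cause was not tested. With the replicate block, the counts were 966 and 1031 and no call of a member changed (C007R083 in WN 2.02, C194R097 1.13), and same-numbered fish of WN and CT had deviations correlated by -0.09 to 0.12, so the numbers do not pair the fish. SAM called 1209 and 1506 probes, with 27.8% higher in WN. The correlation of C120R137 and C194R097 was -0.42 in the authors' table.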
